A study of Mus musculus with 8 samples.

Results

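The genes described here are the heat shock chaperones of the mouse cytosol, the 4 mitochondrial chaperones set beside them, the co-chaperones that work with Hsp70 and Hsp90, and the transcription factors Hsf1 and Hsf2. They were chosen by symbol from a list of 37 genes. Of these, 36 were found by Ensembl identifier among the 43432 genes of the count table; Hspa14 was not matched and is not analysed here. All 36 passed the filter on low counts that left 14906 genes for testing. The genes were divided by role into 12 that heat shock factor 1 (HSF1) is known to induce, 12 matched constitutive chaperones, 4 mitochondrial chaperones, 6 co-chaperones and the 2 factors.

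RNA was sequenced from EpCAM+CD45- lung cells, a sorting gate for epithelial cells without leukocytes, of C57BL/6J mice aged 14 weeks. The groups were C/C (n = 2 libraries) and C/+ (n = 3), which carry both copies or 1 copy of the ChiaRed allele and gave the ChiaRed+ part of the gate, and WT (n = 3), which gave the whole gate. ChiaRed reports on Chia1, the gene of acidic mammalian chitinase. Sorting and genotype therefore both differ between the reporter groups and WT and cannot be told apart there, whereas C/C and C/+ cells passed the same sort. The labels do not say that the libraries of a group come from separate animals. Sex-linked transcripts differed between libraries within C/+ and within WT, so each of these groups holds more than 1 animal, which was not shown for C/C, and each p-value measures the spread between these libraries.

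Total counts ran between 41950581 and 46478577 in C/C, 17057216 and 30190458 in C/+, and 20232091 and 52319957 in WT. Epcam, the gate's own marker, stood at 157 to 202 CPM over all 8 libraries, while Ptprc, which encodes CD45, stayed between 0.118 and 1.80 CPM. Sftpc, the surfactant protein C gene of alveolar type 2 cells, had 166725 and 163513 CPM in C/C. It had 137228 to 148570 CPM in C/+ and 104356 to 130764 CPM in WT. Sums of 10 alveolar type 2 markers were 247942 and 251839 CPM in C/C, against 213173 to 221965 in C/+ and 183621 to 209961 in WT. Of the 10, 4 had a negative log2 fold change in C/C against C/+, and 0 were called. CPM are counts scaled to a common library total with TMM factors. Chia1 had 1.45 and 0.365 CPM in the C/C libraries, against 223 to 341 CPM in C/+ and 267 to 454 CPM in WT, so the C/C cells held almost no Chia1 transcript. The cells were not alike in makeup: 10 endothelial markers summed to 49.7 and 41.4 CPM in C/C, against 519 to 854 CPM in C/+ and 58.5 to 260.2 CPM in WT, and 8 club cell markers to 491 and 720.3 CPM in C/C, against 5124 to 9519 CPM in C/+ and 459.6 to 1110 CPM in WT. Summed levels of 7 mesenchymal markers were 14.1 and 17.3 CPM in C/C, against 79.5 to 217 CPM in C/+ and 16.1 to 39.6 CPM in WT, and those of 6 mesothelial markers 84.4 and 84.3 CPM in C/C, against 110 to 247.5 CPM in C/+ and 49.1 to 77.8 CPM in WT. Transcripts of the mitochondrial genome took 4.92% and 6.67% of counts in C/C, against 3.93% to 6.40% in C/+ and 2.90% to 3.31% in WT. In sorted pools, fewer cells of a type and less RNA per cell cannot be told apart. The part of these cell types, and of the mitochondrial share, in the chaperone results was not tested.

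Heat shock proteins bind unfolded or partly folded proteins. Hsp70 proteins hold short hydrophobic stretches of a client and release them on an ATP cycle that J-domain proteins (Dnaj) start and nucleotide exchange factors (Bag proteins, Hsp110) complete; Hsp90 proteins take over some clients, such as steroid receptors and kinases, with the help of co-chaperones. HSF1 is held inactive in unstressed cells and, when unfolded proteins accumulate, binds as a trimer to heat shock elements, arrays of the unit nGAAn in alternating orientation, in front of the inducible genes. Tissue dissociation and cell sorting are known to raise heat shock and immediate early transcripts in many cell types.

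The promoters of 4 inducible genes higher in C/C cells are printed, with that of the mitochondrial gene Hspe1, which did not pass the test. The reasons are that the members moved together and that matches to units of the heat shock element differ between these promoters. All of the promoters printed hold a match. Each is the stretch of 250 bases before a RefSeq transcript start on GRCm38.p6, written 5′ to 3′ on the gene's strand, and capitals mark matches to the pair of inverted units GAANNTTC or TTCNNGAA, including runs in which such pairs overlap.
Hspa1a, chr17:34972157-34972406, minus strand: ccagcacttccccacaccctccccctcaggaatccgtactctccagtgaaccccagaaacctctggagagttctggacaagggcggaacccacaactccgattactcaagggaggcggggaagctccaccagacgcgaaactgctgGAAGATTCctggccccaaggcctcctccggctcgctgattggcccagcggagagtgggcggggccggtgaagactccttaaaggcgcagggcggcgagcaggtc
Hspb1, chr5:135887669-135887918, plus strand: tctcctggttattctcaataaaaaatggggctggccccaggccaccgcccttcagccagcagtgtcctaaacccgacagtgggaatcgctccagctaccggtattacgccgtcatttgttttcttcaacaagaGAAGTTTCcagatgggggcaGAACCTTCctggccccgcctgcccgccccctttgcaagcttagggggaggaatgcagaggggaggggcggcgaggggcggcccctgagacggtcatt
Hsph1, chr5:149636337-149636586, minus strand: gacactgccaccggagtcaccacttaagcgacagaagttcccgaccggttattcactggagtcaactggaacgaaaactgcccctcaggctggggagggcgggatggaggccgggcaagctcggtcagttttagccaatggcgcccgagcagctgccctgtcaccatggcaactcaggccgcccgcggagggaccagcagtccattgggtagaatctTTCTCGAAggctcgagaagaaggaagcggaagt
Dnaja1, chr4:40722218-40722467, plus strand: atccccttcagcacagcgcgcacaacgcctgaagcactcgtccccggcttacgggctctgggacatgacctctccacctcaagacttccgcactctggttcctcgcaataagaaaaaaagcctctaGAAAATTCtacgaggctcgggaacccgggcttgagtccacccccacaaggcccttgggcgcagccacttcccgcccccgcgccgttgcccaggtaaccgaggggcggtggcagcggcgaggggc
Hspe1, chr1:55087898-55088147, plus strand: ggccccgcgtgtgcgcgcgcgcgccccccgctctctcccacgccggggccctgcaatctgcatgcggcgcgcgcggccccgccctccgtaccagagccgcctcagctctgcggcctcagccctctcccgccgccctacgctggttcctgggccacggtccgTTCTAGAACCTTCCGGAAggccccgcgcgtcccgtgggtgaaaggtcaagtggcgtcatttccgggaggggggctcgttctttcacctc
Both strands were searched: either pair reads the same on the other strand, the longer forms of 3 alternating units (GAANNTTCNNGAA and TTCNNGAANNTTC) are each other's reverse complement, and matches may overlap. Hspa1a held 1 pair, at position -104 from the start, and Hspb1 held 2, at -117 and -97. The stretch of Hspe1 held 3 overlapping pairs, which made up both longer forms. The upstream 250 bases of Hspa1b matched those of Hspa1a at 247 positions and held the same pair at -104. Hspd1, whose start lies head to head with that of Hspe1, shares the stretch with it. Some of the starts lie inside the gene as GENCODE annotates it, those of Hsph1, Dnaja1 and Hspe1 among them. Of the 10 inducible genes with a window in the RefSeq table, 6 held at least 1 pair (Hspa1a, Hspa1b, Hspb1, Hsph1, Dnaja1 and Dnajb4). A gene with several starts counted if any of its windows held a pair, and Dnaja1 and Dnajb4 also had windows without one. By window, 46.7% of the inducible windows and 12.8% of all windows held a pair. The 4 without one were Bag3, Chordc1, Dnajb1 and Hspb8, which says only that these letters are not in those windows. Of constitutive genes 3 of 10 held a pair (Dnaja4, Dnajb6 and Hspb6), of mitochondrial genes 2 of 3, of co-chaperones 1 of 5 (Fkbp4) and of factors 0 of 1. Over all 27025 genes of the table, 14.5% held a pair and 0.514% a form with 3 units. The members with the longer form were Hspd1, Hspe1 and Dnajb6, filed here in the mitochondrial and constitutive classes. None was in the inducible class as divided here, which does not mean that heat cannot induce them. A match is a description of the letters and not a measured site.

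C/C cells against C/+ cells, both ChiaRed+, showed higher levels of most inducible chaperones and of some members of the other classes. Of the 12 inducible genes, 10 rose and 0 fell (edgeR quasi-likelihood test, Benjamini-Hochberg adjusted p under 0.05), beside 1.75% of all tested genes that rose. Their median log2 fold change was 1.505, against -0.01 over all genes. Among the 12 constitutive chaperones 4 rose, with a median of 0.23. Of the 4 mitochondrial chaperones 0 passed, with a median of 0.44, although 3 had an unadjusted p under 0.05 and the DESeq2 Wald test called 2. Co-chaperones rose in 3 of 6 cases, with a median of 0.68, and 1 of the 2 factors rose. Together 18 of 36 members rose and 0 fell, where 7.08% of all genes changed in either direction and 5.33% fell. Much of this count was lost without library 1 of C/C. A lone C/C library remains in that fit, as in the fit that leaves out C/C 2, where fewer of the calls were lost. With their counts summed, Hspa1a and Hspa1b had a log2 fold change of 4.003 when C/C 2 was the lone library. It was 5.71 when C/C 1 was the lone library. The part of the smaller sample number in the lost calls was not tested. The calls of Hspa1a and Hspb1 stood in every fit with 1 library left out. With C/+ 2 left out, 11 members were called, where calls over all genes fell from 1056 to 728. The calls of Bag3, Dnaja1, Dnajb1, Dnajb4, Fkbp4, Hsp90aa1, Hsp90ab1, Hspa1b and Hspb8 were lost with C/C 1 left out and with no other library, and that of St13 also with C/+ 2. Those of Hsph1, Hspa8, Ahsa1 and Dnaja4 were lost with any C/C or C/+ library left out. The calls of Hsf1 and Hspa4 were lost without either C/C library, C/+ 1, C/+ 2 or WT 2, and that of Hspa4 also without WT 3, with the compared groups fitted alone and in female libraries alone. A filter of 1 CPM in 5 libraries lost Ahsa1, Dnaja4, Hsf1 and Hspa4, and sex as a covariate lost Ahsa1 and Dnaja4. The members and classes were picked with earlier results of these data known, so the counts describe these genes and are no independent test.

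**Figure D1:**
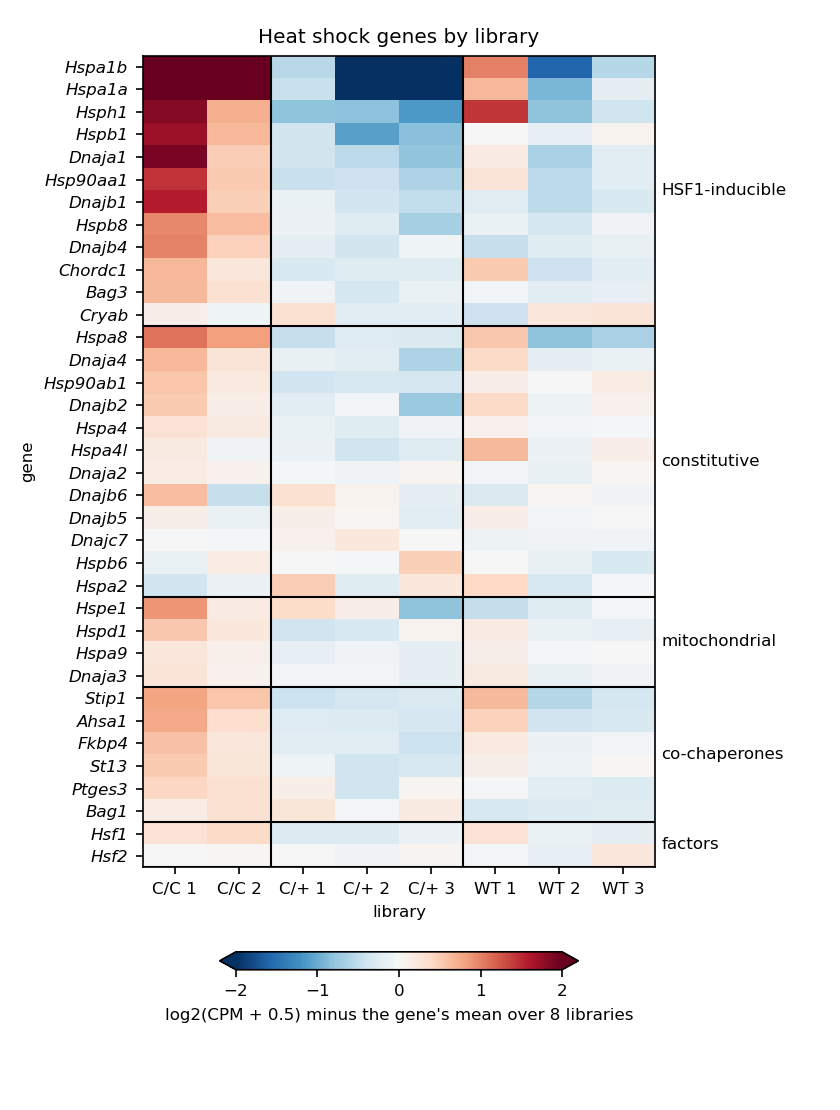
Each row is a member gene and each column a library; the colour gives log2(CPM + 0.5) minus the gene's mean over the 8 libraries, cut at the ends of the bar. Both C/C columns are red over most inducible genes, C/C 1 more than C/C 2, and WT 1 is red for Hsph1, Hspa1b, Hspa8 and Stip1 but not for Hspb1 or Dnajb4.

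The stress-inducible Hsp70 genes had the largest fold changes of the 36 members. Hspa1a (chr17:34969190-34972156, minus strand, GRCm38) had 510.4 and 165 CPM in the C/C libraries, against 22.7, 4.67 and 3.71 CPM in C/+ and 49.6, 16.4 and 27.6 CPM in WT. Hspa1b, its neighbour at chr17:34956436-34959238, had 476 and 137 CPM in C/C, against 16.6, 4.34 and 3.53 CPM in C/+ and 50.2, 7.83 and 16.3 CPM in WT. Both C/C libraries lay above every other library for either gene, and within each group the libraries differed by 3-fold or more. The coding sequences of the pair are 99.4% identical, so reads can be split between them or lost, and their sum is given beside them. Hspa1a also shares 564 exon bases with Gm20481 on the opposite strand. Summed, they reached 987 and 302 CPM in C/C, against 39.3, 9.00 and 7.23 CPM in C/+ and 99.8, 24.2 and 43.9 CPM in WT, or 644 ± 484 CPM (SD, n = 2), 18.5 ± 18.04 CPM (n = 3) and 56.0 ± 39.2 CPM (n = 3). The sum rose 34.0-fold in C/C against C/+ (log2 fold change 5.09, SE 0.81, adjusted p = 0.00489 by edgeR). Without C/C 1 the log2 fold change was 4.003 and the adjusted p by edgeR 0.0527. Hspa1a took 51.7% and 54.5% of the summed counts in C/C, 51.2% to 57.7% in C/+ and 49.7% to 67.6% in WT. The lowest summed count behind these values was 123 reads, in C/+ 3, and the highest 42996, in C/C 1.

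Hsph1, the Hsp110 that serves Hsp70 as exchange factor, had 76.3 and 34.7 CPM in C/C, against 11.8, 11.7 and 9.17 CPM in C/+ and 57.7, 11.8 and 15.9 CPM in WT. It rose in C/C against C/+ (log2 fold change 2.34, SE 0.57, adjusted p = 0.0338 by edgeR; highest 0.324 with 1 library left out), and 1 WT library, WT 1, lay between the C/C values. Hspb1, the small heat shock protein Hsp25, had 80.9 and 38.2 CPM in C/C, against 18.6, 11.1 and 13.2 CPM in C/+ and 23.8, 21.5 and 25.3 CPM in WT. Its rise against C/+ (log2 fold change 2.05, SE 0.29, adjusted p = 0.00262 by edgeR) was among the 2 calls that stood with any 1 library left out. Hspb8, the small chaperone that pairs with Bag3, had 104 and 82.9 CPM in C/C, against 49.4, 45.4 and 33.7 CPM in C/+ and 48.7, 42.0 and 50.8 CPM in WT (C/C against C/+ log2 fold change 1.13, SE 0.17, adjusted p = 0.00319 by edgeR). Bag3, an Hsp70 exchange factor of chaperone-assisted autophagy, had 105 and 82.6 CPM in C/C, against 63.6, 52.4 and 61.1 CPM in C/+ and 64.6, 57.9 and 59.6 CPM in WT (log2 fold change against C/+ 0.67, SE 0.13, adjusted p = 0.0106 by edgeR). For Hspb8 and Bag3 the C/+ and WT libraries overlapped and the C/C libraries lay above them all. Cryab, the alpha B-crystallin gene and the third small heat shock gene of the class, had 71.9 and 61.3 CPM in C/C, against 80.7, 55.9 and 56.3 CPM in C/+ and 49.0, 76.0 and 78.04 CPM in WT. Its groups overlapped in full (log2 fold change against C/+ 0.05, SE 0.21, adjusted p = 0.938 by edgeR). Cryab shares 252 exon bases with Hspb2 on the opposite strand.

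Among the J-domain proteins, which hand clients to Hsp70, 3 inducible genes rose. Dnaja1 had 250.4 and 94.8 CPM in C/C, against 51.8, 46.5 and 38.5 CPM in C/+ and 75.6, 42.7 and 57.5 CPM in WT (C/C against C/+ log2 fold change 1.92, SE 0.34, adjusted p = 0.00737 by edgeR). Dnajb1, the Hsp40 first found as a heat shock protein, had 182 and 86.1 CPM in C/C, against 56.1, 47.3 and 43.6 CPM in C/+ and 52.5, 42.5 and 49.9 CPM in WT (log2 fold change against C/+ 1.45, SE 0.25, adjusted p = 0.00631 by edgeR). Dnajb4, a close relative of Dnajb1, had 103 and 71.0 CPM in C/C, against 45.4, 39.6 and 48.5 CPM in C/+ and 37.2, 43.5 and 46.5 CPM in WT (log2 fold change against C/+ 0.97, SE 0.16, adjusted p = 0.00593 by edgeR). Neither Dnajb1 nor Dnajb4 separated C/+ from WT, and for all 3 genes both C/C libraries were the highest of the 8. Dnaja4, a J-protein of the constitutive class, had 101 and 76.2 CPM in C/C, against 57.8, 54.2 and 41.5 CPM in C/+ and 83.0, 56.4 and 58.5 CPM in WT, and it rose against C/+ (log2 fold change 0.79, SE 0.20, adjusted p = 0.0371 by edgeR). Dnaja1 shares 608 exon bases with Smu1 and Dnaja4 shares 1581 with Wdr61, in each case on the opposite strand. The library kit was stranded, but the strand setting of the counting is not given in the sources used here, so reads of these partners may be mixed. The other J-proteins of the constitutive class, Dnaja2, Dnajb2, Dnajb5, Dnajb6 and Dnajc7, were not called, with log2 fold changes of -0.12 to 0.66.

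Hsp90 has an inducible and a constitutive gene in the cytosol. Hsp90aa1, the inducible one, had 130.2 and 68.3 CPM in C/C, against 34.8, 35.4 and 30.9 CPM in C/+ and 56.7, 32.6 and 40.9 CPM in WT (C/C against C/+ log2 fold change 1.56, SE 0.26, adjusted p = 0.00593 by edgeR). Hsp90ab1, the constitutive one, had 1337 and 1041 CPM in C/C, against 698, 724 and 721 CPM in C/+ and 994, 908 and 1005 CPM in WT (log2 fold change against C/+ 0.74, SE 0.12, adjusted p = 0.00593 by edgeR). The C/+ libraries of Hsp90ab1 lay within a narrow band and below all others. Chordc1, an Hsp90-binding protein induced by heat, had 57.5 and 42.6 CPM in C/C, against 29.3, 30.7 and 30.6 CPM in C/+ and 52.1, 27.1 and 30.9 CPM in WT. It lay above C/+ in both C/C libraries but was not called (log2 fold change 0.73, SE 0.24, adjusted p = 0.107 by edgeR). The other uncalled inducible gene was Cryab, and both were named after their values were seen.

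**Figure D2:**
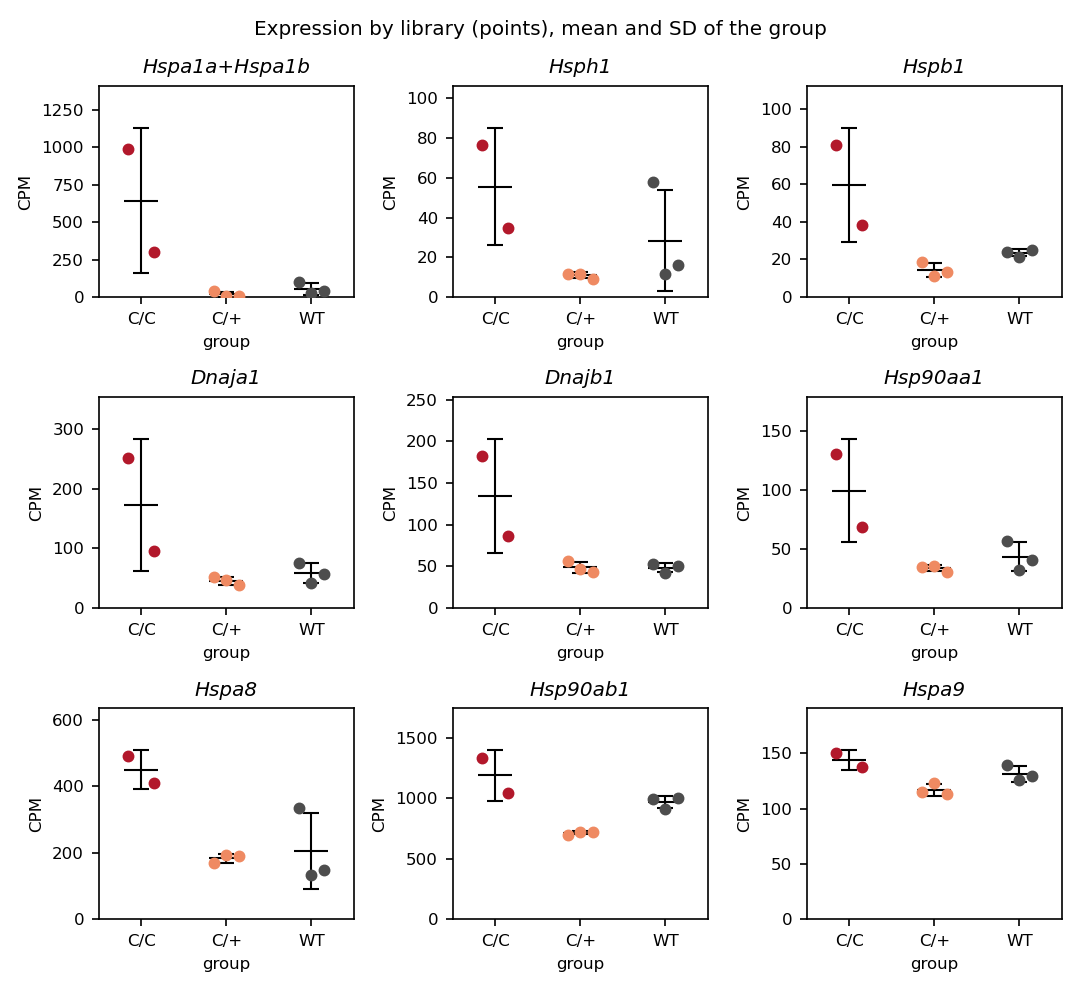
CPM of 8 genes and of the Hspa1a and Hspa1b sum in each library (points), with the mean and SD of the group (bars; n = 2 for C/C, n = 3 for C/+ and for WT), each axis starting at 0. In every panel except Hsph1 and Hspa9 both C/C points lie above all C/+ and WT points; in Hsph1 the WT 1 point, 57.7 CPM, lies between the C/C points of 76.3 and 34.7 CPM.

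Per kilobase of exon, the scale on which genes can be compared, Hsp90ab1 was the highest member at 309.6 CPM per kb over all libraries, followed by Fkbp4 at 147, Bag1 at 119 and the Hspa1a and Hspa1b sum at 65.5, whereas Dnajb6 at 1.15 and Hsf2 at 1.21 were the lowest. Hspa8, the constitutive cytosolic Hsp70 that also uncoats clathrin vesicles, stood at 60.2 CPM per kb. The Hspa1 sum per kb was 2.99 and 1.10 times that of Hspa8 in the C/C libraries, against 0.348, 0.0694 and 0.0569 times in C/+ and 0.442, 0.271 and 0.445 times in WT. Per kb, the inducible Hsp70 thus exceeded the constitutive one in both C/C libraries and in no other library. In C/C 2 this order rests on the exon lengths, 2967 and 2803 bases for Hspa1a and Hspa1b against 4301 for Hspa8. In CPM the Hspa1 sum of C/C 2, 302, lay below the 409.6 of Hspa8. Hsp90aa1 stood at 0.0743 and 0.0501 times Hsp90ab1 in C/C, against 0.0380, 0.0373 and 0.0327 times in C/+ and 0.0436, 0.0274 and 0.0311 times in WT, so the constitutive form remained the major Hsp90 transcript in all 8. Both ratios were higher in every C/C library than in any other. Each had p = 0.2 against C/+ and p = 0.2 against WT in a two-sided exact permutation test of log2 ratios, the smallest value that 2 against 3 libraries allow (adjusted p = 0.24 over 6 tests), so this design cannot reach 0.05.

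Within the constitutive class, Hspa8 had 492 and 409.6 CPM in C/C, against 168, 193 and 189.6 CPM in C/+ and 336, 133 and 147 CPM in WT. It rose against C/+ by a log2 fold change of 1.29 (SE 0.32, adjusted p = 0.0356 by edgeR), and WT 1 lay between the C/C libraries and the rest. Hspa4, a constitutive Hsp110 relative, had 142 and 131 CPM in C/C, against 106, 97.8 and 110.3 CPM in C/+ and 123, 111 and 115 CPM in WT, and rose against C/+ (log2 fold change 0.38, SE 0.10, adjusted p = 0.0428 by edgeR). The class members not called were the 5 J-proteins given above and Hspa2, Hspa4l and Hspb6, whose log2 fold changes against C/+ were -0.46, 0.31 and -0.16. Processed copies of chaperone genes such as Hspa8 are known in the mouse genome, and how reads with several alignments were treated is not given in the sources used here.

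The mitochondrial chaperones fold proteins imported into the matrix. Hspa9, the mitochondrial Hsp70, had 150.2 and 138 CPM in C/C, against 115, 123 and 113 CPM in C/+ and 139.7, 126 and 129 CPM in WT (C/C against C/+ log2 fold change 0.30, SE 0.10, adjusted p = 0.106 by edgeR). Dnaja3, its J-protein partner, had 56.4 and 50.1 CPM in C/C, against 45.2, 45.2 and 41.3 CPM in C/+ and 53.5, 42.6 and 44.9 CPM in WT (log2 fold change against C/+ 0.28, SE 0.12, adjusted p = 0.222 by edgeR). Hspd1 and Hspe1, the Hsp60 chaperonin and its Hsp10 lid, had log2 fold changes of 0.59 and 0.59 with adjusted p by edgeR of 0.0662 and 0.333; their transcripts share 112 exon bases head to head. In Hspa9, Hspd1 and Dnaja3 both C/C libraries lay above every C/+ library, as they did in 18.1% of all tested genes, and none of these passed the adjusted threshold. For Hspe1 the groups overlapped.

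Co-chaperones link Hsp70 and Hsp90 or set the pace of their cycles. Fkbp4, the immunophilin of steroid receptor complexes, had 603 and 471 CPM in C/C, against 347, 347 and 299 CPM in C/+ and 460.2, 369.6 and 387 CPM in WT (C/C against C/+ log2 fold change 0.70, SE 0.14, adjusted p = 0.0144 by edgeR). St13, the Hsp70-interacting protein Hip, had 131 and 109 CPM in C/C, against 86.4, 69.7 and 72.9 CPM in C/+ and 99.5, 85.0 and 93.2 CPM in WT (log2 fold change against C/+ 0.65, SE 0.13, adjusted p = 0.0111 by edgeR). Ahsa1, the activator of the Hsp90 ATPase, had 84.4 and 63.5 CPM in C/C, against 41.7, 41.1 and 39.6 CPM in C/+ and 68.6, 38.4 and 40.2 CPM in WT (log2 fold change against C/+ 0.86, SE 0.22, adjusted p = 0.0461 by edgeR). WT 1 lay within the C/C range in Ahsa1 and below both C/C libraries in Fkbp4 and St13. Stip1, the Hop protein that joins Hsp70 to Hsp90, showed the same arrangement as Ahsa1, with 110.1 and 93.8 CPM in C/C, against 47.3, 50.5 and 52.05 CPM in C/+ and 101, 42.6 and 50.0 CPM in WT. It missed the threshold against C/+ (log2 fold change 1.03, SE 0.29, adjusted p = 0.0591 by edgeR). Ptges3, the p23 co-chaperone, was not called either (log2 fold change 0.42). Bag1, an Hsp70 exchange factor, had 175 and 195 CPM in C/C, against 186, 154 and 179 CPM in C/+ and 126, 131 and 133 CPM in WT. C/C and C/+ overlapped for Bag1 (log2 fold change 0.10, adjusted p = 0.694 by edgeR), and both lay above WT; every C/+ library lay above every WT library in 14.1% of all tested genes.

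Hsf1 itself had 55.3 and 59.5 CPM in C/C, against 37.6, 37.6 and 41.6 CPM in C/+ and 55.8, 41.6 and 40.2 CPM in WT. It rose against C/+ by 0.56 on the log2 scale (SE 0.14, adjusted p = 0.0416 by edgeR), while WT 1 lay within the C/C range. HSF1 is mainly controlled through its protein, which these data do not measure. Hsf2, a related factor, had 11.6 and 11.7 CPM in C/C, against 11.5, 11.0 and 12.1 CPM in C/+ and 11.2, 10.2 and 13.4 CPM in WT, and did not separate any groups (log2 fold change of C/C against C/+ 0.02, SE 0.16, adjusted p = 0.965 by edgeR).

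**Figure D3:**
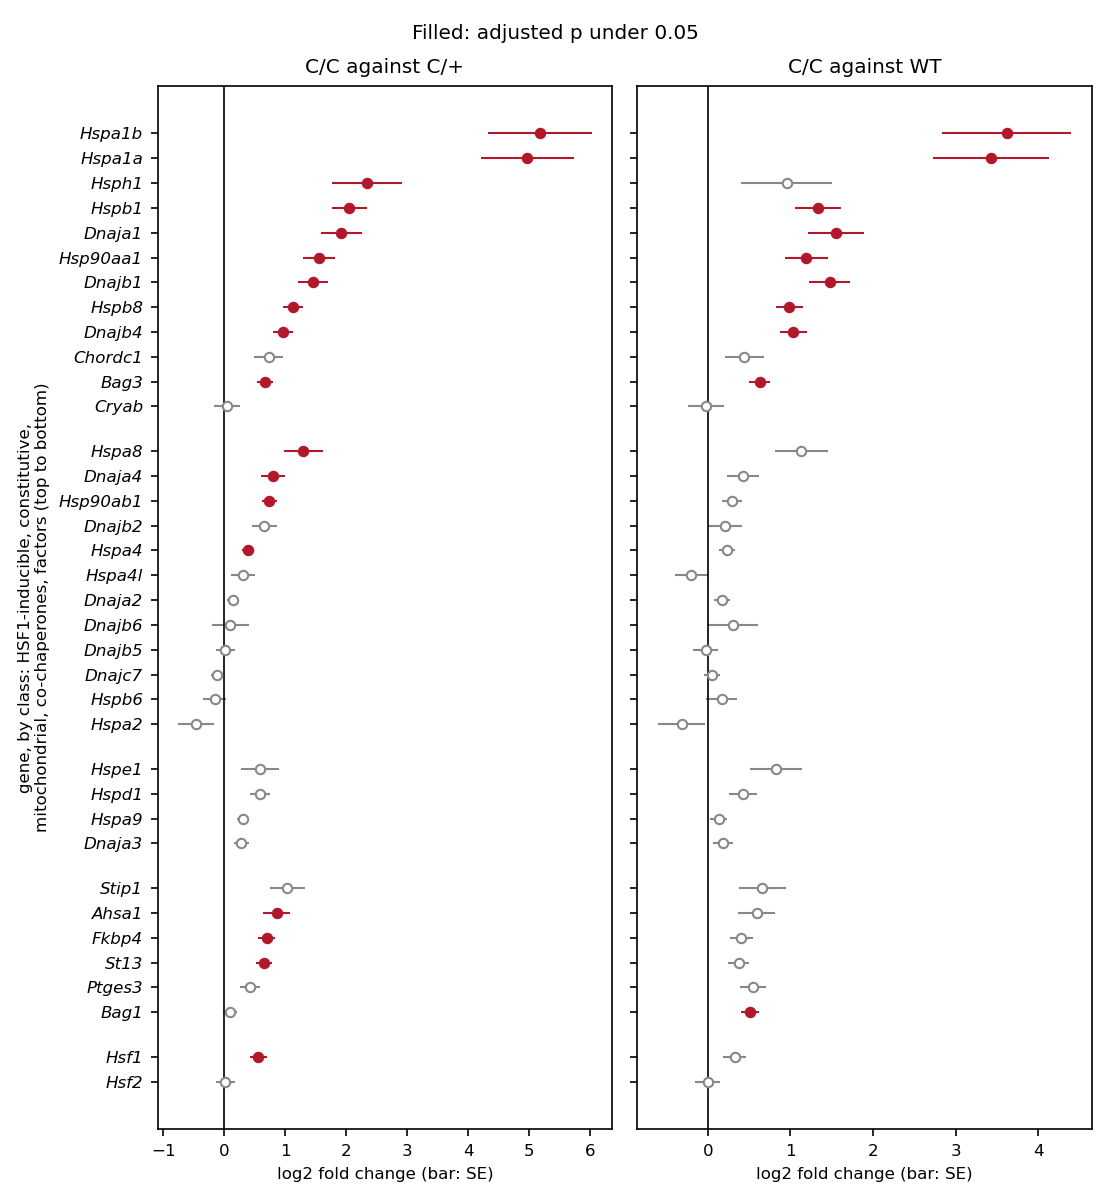
Log2 fold change of each member in C/C against C/+ (left) and against WT (right), with its SE as the bar; filled points have an adjusted p under 0.05. Filled points fill most of the inducible block in both panels (10 and 9 of 12), while outside it 8 are filled on the left and 1, Bag1, on the right.

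C/C cells against the whole WT gate gave 10 calls, of which 9 were inducible genes. This comparison shares the C/C libraries with the one above, so its values stand beside the others and are no second test of them. Of the 12 inducible genes 9 rose and 0 fell (edgeR, adjusted p under 0.05), beside 1.62% of all tested genes that rose, and their median log2 fold change was 1.11 against -0.03 over all genes. Within the inducible class, the gene called against C/+ but not against WT was Hsph1, at 0.96 (SE 0.55, adjusted p = 0.337 by edgeR). The test of the difference between these contrasts is that of C/+ against WT, given below. The Hspa1 sum rose 11.5-fold (log2 fold change 3.52, SE 0.76, adjusted p = 0.0406 by edgeR), a log2 fold change that was 2.43 without C/C 1 and 4.21 without WT 1. The other inducible genes rose by log2 fold changes between 0.63 for Bag3 and 1.56 for Dnaja1, with Dnajb1 at 1.47, Hspb1 at 1.34, Hsp90aa1 at 1.19, Dnajb4 at 1.04 and Hspb8 at 0.99. No constitutive or mitochondrial chaperone was called, although 3 and 2 of them had an unadjusted p under 0.05; DESeq2 called 0 of either. Neither factor was called against WT, 1 of them having an unadjusted p under 0.05 and DESeq2 again calling 0. Among the co-chaperones 1 rose, Bag1 (log2 fold change 0.51, SE 0.11, adjusted p = 0.0392 by edgeR), against 3 by DESeq2. In all 10 of 36 members rose and 0 fell, where 2.98% of all genes changed and 1.36% fell. Both C/C libraries lay above every WT library in 9 of 12 inducible genes, as they did in 20.8% of all genes. None of the 10 calls stood in every fit with 1 library left out. The count fell to 0 without WT 2 and to 3 without C/+ 2 or WT 3. Calls over all genes fell as well, from 444 to 39 without WT 2, 178 without C/+ 2 and 281 without WT 3. It also fell without either C/C library, where a lone C/C library remains. The Hspa1 sum had adjusted p by edgeR of 0.312, 0.12, 0.0623, 0.118 and 0.0847 without C/C 1, C/C 2, C/+ 2, WT 2 and WT 3.

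C/+ cells against the WT gate gave no call among the inducible genes. In this contrast 0 of the 12 were called, by edgeR and by DESeq2, though 3 had an unadjusted p under 0.05, beside 3.92% of all genes called in either direction. Their median log2 fold change was -0.32. The Hspa1 sum had a log2 fold change of -1.57 (SE 0.69, adjusted p = 0.237 by edgeR), which was -2.78 without C/+ 1 and -0.86 without WT 1. It passed the threshold with no low-count filter (adjusted p = 7.09e-05 by edgeR) and with the replicate block (adjusted p = 0.00852 by edgeR). In female libraries alone, where WT 1 is the only WT library, its log2 fold change was -3.62. Hsph1 had a log2 fold change of -1.39 (SE 0.53, adjusted p = 0.176 by edgeR) and Hspb1 of -0.71 (SE 0.26, adjusted p = 0.163 by edgeR). Of all tested genes 3.42% rose and 0.503% fell. Hspb1 was the inducible gene whose C/+ libraries all lay below the WT libraries. The share of all tested genes in this order was not computed. Over the 36 members 26 had a negative fold change, where 50.6% of all tested genes had a positive one. The 1 member called was Bag1, higher in C/+ (log2 fold change 0.42, SE 0.10, adjusted p = 0.0459 by edgeR), and it was lost whichever library was left out. Hsp90ab1 was lower in C/+ without passing the threshold (log2 fold change -0.44, SE 0.11, adjusted p = 0.0569 by edgeR), and DESeq2 called it.

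The libraries of a group did not carry the signal evenly. C/C 1 was the highest of the 8 libraries for 27 of 36 members, where it was the highest for 13.0% of all tested genes. C/C 1 exceeded C/C 2 in 12 of 12 inducible genes, by a median of 2.01 times and a range of 1.17 to 3.46, and in 10 of 12 constitutive ones, by a median of 1.19 times. Of all tested genes with at least 1 CPM summed over both libraries, 50.9% were higher in C/C 1. Still, both C/C libraries lay above all 6 others in 17 members, of which 9 were inducible, 4 constitutive, 1 mitochondrial and 3 co-chaperones; 9.72% of all tested genes showed this order.

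WT 1 was well above the other WT libraries for some members and near or below them for others. Its level over the mean of WT 2 and WT 3 was 4.17 for Hsph1, 4.15 for Hspa1b, 2.93 for the Hspa1 sum, 2.402 for Hspa8, 2.17 for Stip1, 1.80 for Chordc1 and 1.75 for Ahsa1. For Hspb1, Hspb8, Bag3 and Dnajb1, which were higher in C/C, the same ratio was 1.02, 1.05, 1.10 and 1.14, for Dnajb4 0.827 and for Cryab 0.637. A ratio of at least 1.4, a limit set after the values were seen, was reached by 12 of 36 members, among them 6 inducible, 4 constitutive, 2 co-chaperone and 0 mitochondrial genes, and by 13.2% of all tested genes. WT 1 was the highest of all 8 libraries in 18.9% of all tested genes. By Xist and Y-linked counts WT 1 was the female library among the WT, and both C/C libraries, C/+ 2 and C/+ 3 were female too. With sex as a covariate 17 members were called in C/C against C/+ and 11 in C/C against WT.

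Immediate early genes, which respond within minutes to many stimuli, were also higher in C/C. Of 19 tested genes of that list 9 rose against C/+ and 0 fell. The largest changes among the genes called were those of Fosl1, Klf6 and Egr1, at log2 fold changes of 3.53, 2.21 and 1.90. Fosl1 was low, with mean CPM of 3.76 in C/C, 0.340 in C/+ and 0.516 in WT. Klf6 and Egr1 had means of 642 and 760 CPM in C/C. Of the 19 genes, 15 had an unadjusted p under 0.05 and DESeq2 called 10. Against WT 3 rose (Fosl1, Jund and Zfp36, at 2.89, 1.21 and 1.20), where 14 had an unadjusted p under 0.05 and DESeq2 called 7. In C/+ against WT 0 were called, by edgeR, by DESeq2 or at an unadjusted p under 0.05. By edgeR, 1.75% of all tested genes rose in C/C against C/+ and 1.62% in C/C against WT. No share over all genes was computed for counts at an unadjusted p, here or in the other paragraphs. Their summed level was 16965 and 13247 CPM in C/C, against 7275, 4436 and 4429 CPM in C/+ and 3355, 6248 and 9659 CPM in WT, beside sums of 2149 and 965 CPM in C/C, 481, 385 and 373 CPM in C/+ and 618, 422 and 499 CPM in WT for the 12 inducible chaperones. C/C 1 was highest on both measures, whereas WT 1 was the lowest of the 8 on the first and the highest WT library on the second. The part of the immediate early response in the chaperone result was not tested.

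**Figure D4:**
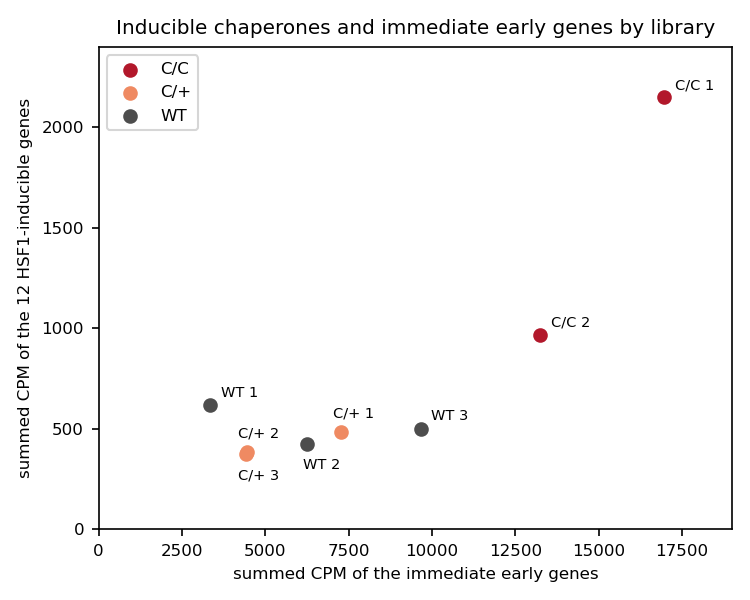
Each point is a library; the horizontal axis gives the summed CPM of the immediate early genes and the vertical axis the summed CPM of the 12 inducible chaperones, both on linear scales from 0. The C/C libraries stand at the upper right, and WT 1, with 618 CPM of chaperones and 3355 CPM of immediate early genes, stands at the left.

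Lists of other genes, mostly of protein folding, were also tested. The first held 47 tested genes, chaperones and chaperonins with some genes that are not chaperones, such as Dedd2, Clpp and Hsbp1. Of these 47 genes 4 rose and 0 fell in C/C against C/+, beside 1.75% of all tested genes that rose. Among them were Dedd2 (log2 fold change 0.81) and Cct3 and Cct6a, subunits of the cytosolic chaperonin CCT (0.51 and 0.51). The median of the 47 was 0.19, 18 had an unadjusted p under 0.05 and DESeq2 called 8. Against WT 2 rose (Clpp and Hsbp1, at 0.59 and 0.51), beside 1.62% of all tested genes. Of the 47, 26 had an unadjusted p under 0.05, and DESeq2 called 13 higher and 2 lower. In C/+ against WT 1 rose (Pfdn5, at 0.46), beside 3.42% of all tested genes, 10 had an unadjusted p under 0.05, and DESeq2 called 2. Of 16 chaperones of the endoplasmic reticulum 3 rose and 0 fell in C/C against C/+ (Dnajb9, Hspa5 and Hyou1, at 1.07, 0.62 and 0.61), with a median of 0.19, 8 at an unadjusted p under 0.05 and 4 called by DESeq2. Against WT 2 of the 16 rose (Sdf2l1 and Dnajb9, at 0.93 and 0.84), with 8 at an unadjusted p under 0.05 and 3 called by DESeq2. In C/+ against WT 0 were called by edgeR, 1 had an unadjusted p under 0.05, and DESeq2 called 1, Hyou1, lower.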

How the data were processed

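RNA was extracted from sorted lung cells and made into stranded mRNA libraries, per the labels. The deposited table holds whole-number read counts per Ensembl gene for 8 libraries, not normalised by the authors. The submitters' processing notes name STAR 2.4.2a and DESeq2, without their roles, and GRCh38, a human build, although the identifiers are of mouse. The counting tool, its strand setting and its treatment of reads with several alignments stand in none of the sources used here. Symbols, exon lengths and positions came from the GENCODE annotation on GRCm38, which named 42548 of 43432 identifiers; promoter letters came from RefSeq (GRCm38.p6).

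Genes were filtered with filterByExpr by group, scaled by TMM and fitted in 1 edgeR 4.0.16 quasi-likelihood model (R 4.3.3) with a mean per group over all 8 libraries. Groups were compared by two-sided F tests, with Benjamini-Hochberg adjustment over all 14906 tested genes and calls at adjusted p under 0.05. For the near-identical Hspa1a and Hspa1b the fit was repeated with their counts summed. The SE is the log2 fold change divided by the root of F. CPM are TMM-scaled; per kb values divide by the union of exons.

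At these depths (total counts in the report) the spread between libraries, not counting, limits precision. No replicate block was used, since no label ties libraries of the same number together. No libraries of a group agreed within sampling noise. Every listed member is accounted for. By rule, values in every library are given for Hspa1a, Hspb1 and the other members called in C/C against C/+, for the factors and for the 2 highest members of each class; Stip1, Chordc1 and Cryab were added after their values were seen. Of other lists at most 3 called genes are named per comparison. Members, classes and lists were chosen with earlier results of these data known. The alternatives tried were size factors of DESeq2 in place of TMM, the Wald test of DESeq2 1.42.0, the compared groups on their own, no filter on low counts, a filter that asks for 1 CPM in at least 5 libraries, sex as a covariate (read from Xist and Y-linked counts), a block for the replicate number, a broader list of 21 inducible genes, and each library left out. A fit to the female libraries was added after seeing the data, and it holds WT 1 as its only WT library.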

Additional observations from a re-analysis of the deposited data

How the results depend on the processing

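No Hspa1 sum or called member changed direction under the alternatives run. Fold changes of uncalled members did, in 5 members between C/C and C/+, 8 between C/C and WT and 16 between C/+ and WT. Among the values given, with 1 library left out the log2 fold change of C/C against C/+ ran between -0.0675 and 0.2461 for Cryab, -0.3117 and 0.026 for Hspb6, -0.0261 and 0.0531 for Hsf2, -0.1104 and 0.1443 for Dnajb5, and -0.583 and 0.567 for Dnajb6. A filter of 1 CPM in 5 libraries gave -0.0122 for Dnajb5 and -0.0097 for Hsf2, and the replicate block -0.039 for Dnajb5 and -5e-04 for Dnajb6. In female libraries alone Hsph1 was at -0.0332 in C/C against WT. The median of all genes in C/C against C/+ (-0.01) was 0.0141 with the compared groups alone. In C/C against C/+ the count of 18 members ran between 2 and 21, and that of 10 inducible genes between 2 and 11, with 1 library left out; without C/C 1 the counts were 2 and 2, and without C/+ 2 the members were 11. The Hspa1 sum (5.09) ran between 4.003 and 6.30. In C/C against WT the count of 10 members ran between 0 and 13, that of 9 inducible genes between 0 and 10, and the sum (3.52) between 2.43 and 4.21; with no low-count filter 16 members were called, and in female libraries alone 4 members and 4 inducible genes. In C/+ against WT the single member called, which was higher, became 0 whichever C/+ or WT library was left out and 0 with the compared groups alone. It became 2 by DESeq2, 8 with no low-count filter and 2 with sex as a covariate. Of these, 1, 7 and 1 were called lower, so the direction of this count differed between fits. The inducible count of 0 became 4 with no low-count filter and 3 in female libraries alone, and stayed 0 with each library left out. The sum (-1.57) passed the threshold with no low-count filter (-1.59, adjusted p = 7.09e-05 by edgeR) and ran between -2.78 and -0.86 with 1 library left out. In female libraries alone, where WT 1 is the only WT library, the sum was at -3.62. Deviations of same-numbered libraries from their group means correlated at -0.52 to 0.41. Between C/+ and WT no library correlated best with its own number, whereas C/C 1 correlated best with C/+ 1, at 0.41. Deviations within the small groups mirror each other, and sex differs between libraries within C/+ and within WT. These correlations therefore cannot decide whether the numbers pair libraries. With the replicate block C/C against C/+ had 14 members called and C/C against WT 8. The SE of the Hspa1 sum in C/C against C/+ was 0.28 with the block and 0.81 without it. C/+ against WT had 2 members called with the block, both of them inducible genes and both lower. Its Hspa1 sum was -1.76 (adjusted p = 0.00852 by edgeR). Over all genes the block called 799, 176 and 457 in the 3 comparisons, against 1056, 444 and 585 without it. The cause of these changes was not tested, except that leaving out a library leaves fewer samples; without 1 C/C library the lone one is assumed to vary like the other groups. The broader list of 21 inducible genes gave 15, 9 and 0 calls. Over all genes, the Wald test called 1609, 1470 and 1270, and no filter 1614, 1456 and 1299.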
